A study of Arabidopsis thaliana with 2 samples.

Results

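The genes described here are 36 nuclear genes of Arabidopsis specialised metabolism: 20 beta-glucosidases (BGLU), 11 tau class glutathione transferases (GSTU), 1 phi class glutathione transferase (GSTF) and 4 cytochrome P450s (CYP). They were chosen by gene symbol, without the CYP71 subfamilies, PYK10 and DIN2, from the 13217 nuclear genes that have a probe set of their own in the array annotation. RefSeq lists 251 nuclear symbols of this pattern, so the 36 are 14.3% of them. The annotation covers 20 of 40 BGLU genes and 11 of 27 GSTU genes. The P450s are only 4 of 172 and the GSTF genes 1 of 12, and neither stands for its family.

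The values come from whole plants of csb3 and of wild-type Col-0, 1 ATH1 array each. csb3 is a mutant in the Columbia (Col-0) background with enhanced disease resistance. It was found in a screen for constitutive activity of a GUS reporter under the promoter of the tomato subtilase gene P69C, and its mutation is known to lie in HDS, which acts in the plastid route to isoprenoid precursors. The labels do not say whether the Col-0 plants carried the reporter. Both genotypes were 5 weeks old and had grown, by the labels, at 23 °C and 60% humidity (the methods give a range of temperature and a higher humidity) with 10 h of light and 14 h of darkness a day, and the design text gives 5 collected plants. Nothing says how many plants went into each RNA sample. Since there is 1 array per genotype, none of the differences below was replicated and none was tested.

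Cytochrome P450s insert oxygen into hormones, fatty acids, phenolics and defence compounds. Glutathione transferases attach glutathione to reactive compounds, and some act in the synthesis of glucosinolates, the sulfur compounds of the cabbage order. Beta-glucosidases cut glucose from stored conjugates and so release active hormones, lignin precursors, coumarins or glucosinolate products. Many members of these families are used in 1 organ only or are induced by stress, pathogens or toxic chemicals.

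BGLU25 (AT3G03640) was 2.81-fold higher in csb3, and the other 13 members that could be read on both arrays fell short of 2-fold in either direction. Those 13 were 6 BGLU, 5 GSTU and 2 P450 genes. BGLU45 and BGLU46 could be read only in csb3, so that the size of their difference is known only as a lower bound and may exceed 2-fold. The other 20 genes stayed below a signal of 50 on both arrays, among them the GSTF gene.

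The signal is the brightness of a probe set on a linear scale, after each array had been scaled by the authors to a mean of 250. A signal below 50 was treated as too dim to measure and raised to 50, and csb3 was then divided by Col-0. A fold with 1 signal below 50 is therefore a lower bound, and none is given where both were below 50. A ratio of 2-fold or more in either direction was called as up or down in csb3. Signals of different probe sets are not on a common scale, so levels are compared only within a gene.

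Of the 36 members, 1 was called up and 0 were called down. Over the 13217 nuclear genes, 3.62% were called up and 2.28% down. Among genes with 50 or more on both arrays the shares were 5.61% up and 4.1% down, which for the 14 members in that class compares with 1 up and 0 down. These counts lie near the background. Of the members, 38.9% had 50 or more on both arrays, against 49.6% of all nuclear genes.

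**Figure D1:**
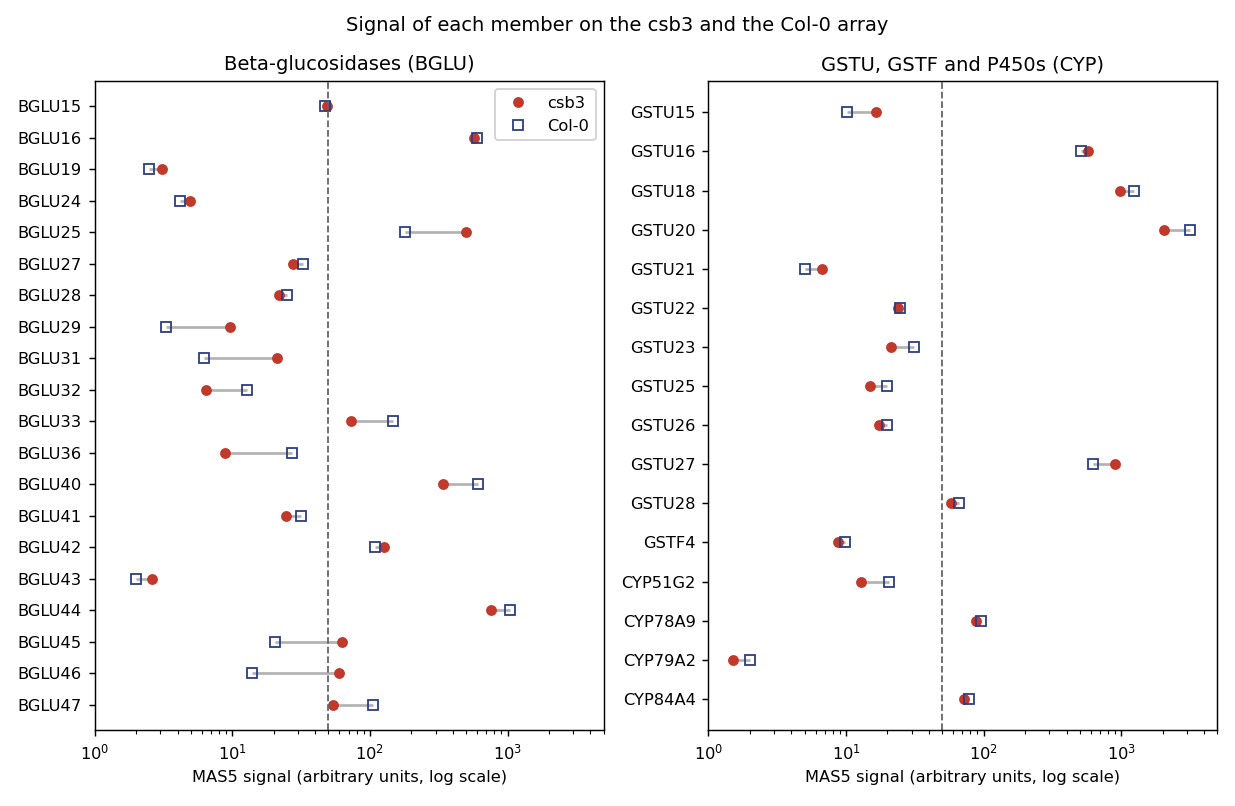
MAS5 signal (log scale, arbitrary units) of all 36 members on the csb3 array (filled circles) and the Col-0 array (open squares), 1 array each, with a dashed line at 50. BGLU25 has 502.9 in csb3 and 179.0 in Col-0, both to the right of the line, and 20 members lie left of the line on both arrays.

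The beta-glucosidases held the widest differences. BGLU25 had a signal of 502.9 in csb3 and 179.0 in Col-0, a log2 ratio of 1.49. Among 6560 nuclear genes with 50 or more on both arrays, 1.95% had a ratio as high or higher. BGLU25 remained at 2-fold or more under each of the 4 other scalings between the arrays and under the other floors, with the smallest value, 2.40-fold, after scaling on a pair of reference genes.

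BGLU25 had been placed in a list with BGLU19 and BGLU24, relatives of the beta-glucosidase PYK10 of root endoplasmic reticulum bodies. The signals of BGLU19 were 3.1 in csb3 and 2.5 in Col-0. Those of BGLU24 were 4.9 in csb3 and 4.2 in Col-0. Neither gene could be read on either array, so BGLU25 was the only one of these 3 members that was measured.

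Among the root markers, only the 2 of endoplasmic reticulum bodies could be seen to differ between the arrays. Of 6 listed root markers, 4 have a probe set of their own in the annotation. All 4 were below 50 in Col-0, and 2 were below 50 in csb3. PYK10 (1219.8 in csb3 and 27.8 in Col-0) and NAI2 (241.1 in csb3 and 26.5 in Col-0), both of endoplasmic reticulum bodies, were called up. The root hair expansins EXPA7 (28.4 in csb3 and 19.2 in Col-0) and EXPA18 (28.3 in csb3 and 11.5 in Col-0) were below 50 on both arrays. The part of root material in the BGLU25 difference was not tested. In RNA from whole plants, a change in the share of an organ and a change in transcript per cell cannot be told apart. Of the leaf markers, only RCA, the activase of Rubisco, has a probe set of its own in the annotation. It had 7431.8 in csb3 and 12690.9 in Col-0. No listed flower or seed marker could be checked.

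BGLU45, BGLU46 and BGLU47 form the group whose best known substrates are the glucosides of monolignols, the building blocks of lignin. BGLU45 and BGLU46 cleave coniferin-type glucosides, and BGLU47 is their close relative. BGLU45 had a signal of 62.6 in csb3 and 20.3 in Col-0. BGLU46 had 59.6 in csb3 and 13.8 in Col-0. Both genes passed 50 only in csb3, and were at least 1.25-fold and at least 1.19-fold higher there.

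BGLU45 and BGLU46 lie side by side on chromosome 1 in the RefSeq order, with no gene between them. Their folds depend on the floor: with a floor of 20, BGLU45 was 3.08-fold higher in csb3 and BGLU46 at least 2.98-fold. BGLU47, on chromosome 4, ran the other way, with 53.6 in csb3 and 104.9 in Col-0. It was 1.96-fold lower in csb3, just short of a call. In csb3 all 3 genes were only a little above the floor.

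Among the genes read on both arrays, BGLU33 came closest to a call without reaching it. Its signal was 73.4 in csb3 and 146.0 in Col-0, 1.99-fold lower in csb3. BGLU40 had 338.5 in csb3 and 607.8 in Col-0, a log2 ratio of -0.84. BGLU33 and BGLU47 passed 2-fold after median centring, intensity-dependent scaling or reference gene scaling, and BGLU40 passed it in the last of these. With spike-in scaling BGLU33 was 1.01-fold lower, and BGLU40 and BGLU47 had log2 ratios of 0.14 and 0.01. With a floor of 100, BGLU33 was at least 1.46-fold and BGLU47 at least 1.05-fold lower.

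The spread between probe sets of the same gene gives a scale for these ratios. Over 46 genes with more than 1 readable probe set, log2 ratios had an SD of 0.65. The SD was 0.75 over the 23 dimmer genes of these and 0.53 over the 23 brighter ones. The spread between plants could not be measured. Of the 14 members with 50 or more on both arrays, 10 had a log2 ratio smaller than 1 SD, BGLU33, BGLU40 and BGLU47 lay between 1 and 2 SD, and BGLU25 lay beyond 2 SD. Over all nuclear genes of that class the shares were 73.6%, 21.8% and 4.59%, and those of the members were 71.4%, 21.4% and 7.14%. With 14 members, these shares are close to the background.

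The remaining readable beta-glucosidases differed little. BGLU42, which in roots releases the coumarin scopoletin from its glucoside and is needed for induced systemic resistance, had 126.0 in csb3 and 108.7 in Col-0. BGLU44, active on mannosides, had 761.9 in csb3 and 1035.9 in Col-0. BGLU16 had 571.1 in csb3 and 599.3 in Col-0, a log2 ratio of -0.07. Their ratios ranged from 1.16-fold higher for BGLU42 to 1.36-fold lower for BGLU44.

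**Figure D2:**
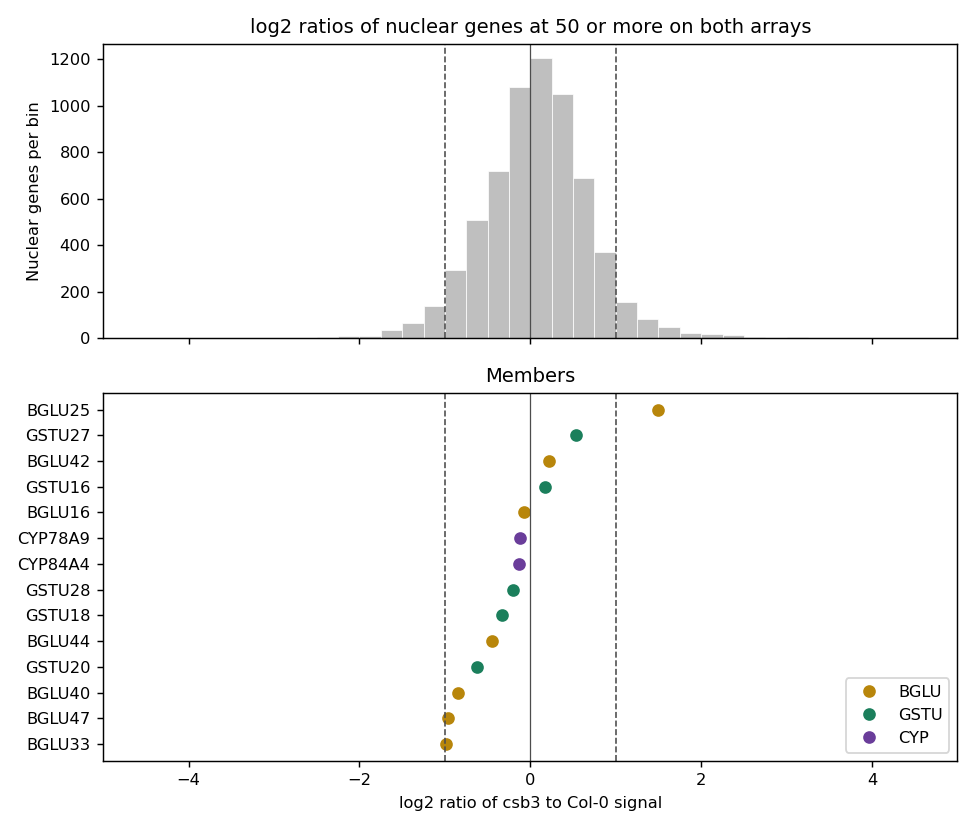
Top, number of nuclear genes per bin of 0.25 in the log2 ratio (csb3 signal over Col-0 signal), for the 6560 genes with 50 or more on both arrays. Bottom, the log2 ratios of the 14 members in that class, coloured by family, with dashed lines at 2-fold; BGLU25 at 1.49 lies beyond the right line, and BGLU33 at -0.99 and BGLU47 at -0.97 lie just inside the left one.

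Among the 11 tau class glutathione transferases, 5 had 50 or more on both arrays and none reached 2-fold as deposited. GSTU20, which is tied to the synthesis of aliphatic glucosinolates, had 2046.2 in csb3 and 3153.5 in Col-0. It was 1.54-fold lower in csb3, the largest difference among the measured GSTU genes as deposited. GSTU27 went the other way, with 905.6 in csb3 and 624.3 in Col-0, 1.45-fold higher. With intensity-dependent scaling GSTU20 was 1.25-fold lower and GSTU27 1.42-fold higher. With spike-in scaling both were higher in csb3, GSTU20 by 1.28-fold and GSTU27 by 2.86-fold. GSTU18 had 981.9 in csb3 and 1230.6 in Col-0. GSTU16 had 569.0 in csb3 and 506.6 in Col-0, and GSTU28 had 57.6 in csb3 and 66.2 in Col-0, so that both lay within 1.15-fold of no change.

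The other 6 GSTU genes were too dim to compare, with signals of 6.7 to 23.8 in csb3 and of 5.0 to 31.4 in Col-0. GSTU25, which with its relatives conjugates toxic nitroaromatic compounds, had 15.0 in csb3 and 19.9 in Col-0. Its neighbour GSTU26 had 17.3 in csb3 and 19.8 in Col-0. GSTF4, the phi class member, had 8.8 in csb3 and 9.9 in Col-0. Signals this low set no fold and do not show that the transcripts are absent.

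Of the 4 P450s, 2 could be read on both arrays, and neither came near 2-fold. CYP84A4, which makes the precursor of the pyrone metabolites called arabidopyrones, had 71.5 in csb3 and 78.5 in Col-0. CYP78A9, which promotes the growth of fruits and seeds, had 88.0 in csb3 and 95.7 in Col-0. The log2 ratios were -0.13 for CYP84A4 and -0.12 for CYP78A9.

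CYP79A2, which turns phenylalanine into the aldoxime that leads to benzylglucosinolate, had 1.5 in csb3 and 2.0 in Col-0. CYP51G2 had 12.8 in csb3 and 20.4 in Col-0. RefSeq classes CYP51G2 as a transcribed pseudogene, related to the sterol demethylase CYP51G1, which is not a member. Of the 19 CYP71 genes with a probe set, which the choice of members leaves out, 11 had 50 or more on both arrays. Among the 19, 4 were called up and none down, beside 3.62% up and 2.28% down over all nuclear genes. Among nuclear genes with 50 or more on both arrays the shares were 5.61% up and 4.1% down. No test between these P450 groups is possible with 1 array per genotype.

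Among the 11 beta-glucosidases below 50 on both arrays were all 5 listed for glucosinolate breakdown or sulfur deficiency. BGLU28, which breaks down glucosinolates when sulfur is short, had 21.7 in csb3 and 25.1 in Col-0. BGLU29 had 9.7 in csb3 and 3.3 in Col-0, and BGLU31 had 21.3 in csb3 and 6.2 in Col-0. BGLU36, of the myrosinase branch, had 8.8 in csb3 and 27.0 in Col-0. BGLU32, the last of the 5, had 6.4 in csb3 and 12.7 in Col-0, and no direction is read from any of the 5.

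BGLU15, which cleaves glucose from flavonol glycosides, lay just under the floor on both arrays, with 48.9 in csb3 and 47.1 in Col-0. BGLU27 had 27.8 in csb3 and 32.9 in Col-0, and BGLU41 had 24.6 in csb3 and 31.8 in Col-0. BGLU43 was near the bottom of the range, with 2.6 in csb3 and 2.0 in Col-0.

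Several members are tandem copies. BGLU15, BGLU28 and BGLU29 are consecutive genes on chromosome 2, and none of them reached 50 on either array. BGLU31 and BGLU32 adjoin on chromosome 5, and both were below 50. In other clusters 1 copy was readable and its neighbour was not. BGLU44 passed 50 on both arrays next to BGLU43, which did so on neither. The same held for BGLU16 next to BGLU27 and for GSTU20 next to GSTU21, which had 6.7 in csb3 and 5.0 in Col-0. GSTU22 (23.8 in csb3 and 24.5 in Col-0) and GSTU23 (21.2 in csb3 and 31.4 in Col-0), a few genes from GSTU21, were dim as well. GSTU16 was readable on both arrays and GSTU15, with 3 genes between them, had 16.6 in csb3 and 10.2 in Col-0. Probe sets of such close copies can read each other's transcripts, although none of the 36 has the ID suffix that marks shared probes.

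As a group, 10 of the 14 members with 50 or more on both arrays were lower in csb3 and 4 were higher, and with spike-in scaling 1 was lower and 13 higher. BGLU25, GSTU27, BGLU42 and GSTU16 were the 4, and BGLU42 and GSTU16 turned lower with reference gene scaling. Spike-in scaling moved the array as a whole: with it, 30.5% of all nuclear genes were called up and 0.227% down. The median log2 ratio of the 14 was -0.17, against 0.08 over the 6560 nuclear genes of that class, of which 43.8% were lower in csb3. The medians were -0.44 for the 7 BGLU genes, -0.20 for the 5 GSTU genes and -0.13 for the 2 P450s, and each was above 0 with spike-in scaling. All the medians come from a single pair of arrays and carry no error.

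**Figure D3:**
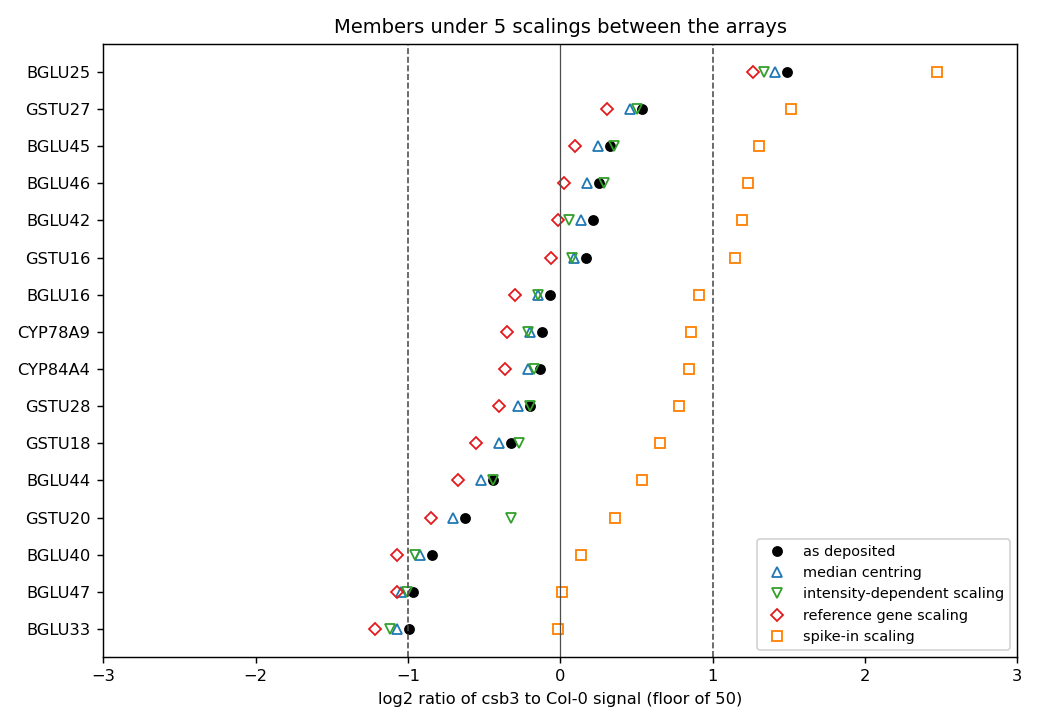
Log2 of the csb3 signal over the Col-0 signal for the 16 members with 50 or more on at least 1 array, under 5 scalings between the arrays (1 symbol each), with dashed lines at 2-fold. BGLU25 lies beyond the right line under each scaling, and spike-in scaling moves all the genes to the right, with the 14 at 50 or more on both arrays having a median of 0.81.

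Genes that act beside these enzymes were taken from lists of 163 names for glucosinolates, phenylpropanoids, sterols, jasmonate, wax, glutathione and P450 electron donors. Of the 162 that are no member, 10 have a probe set of their own, and none was called up or down. Over all nuclear genes 3.62% were called up and 2.28% down, so 0 of 10 lies near the background. The lists for myrosinase and breakdown, for sterols and for P450 electron donors have 0 such probe sets in the annotation. This is a gap in the annotation used and does not show that the array lacks these genes. GSTL3, a lambda class glutathione transferase, had the largest difference of the partner genes read on both arrays. It had 1209.6 in csb3 and 2272.4 in Col-0, 1.88-fold lower. The glutathione reductase GR1 had 1969.7 in csb3 and 1454.4 in Col-0.

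In glucosinolate synthesis, UGT74B1, the glucosyltransferase, had 1019.8 in csb3 and 883.8 in Col-0. BCAT4, which opens the chain elongation of methionine, had 2078.4 in csb3 and 2236.5 in Col-0. As deposited, both lay within 1.16-fold of no change, beside 1.54-fold lower for GSTU20, a ratio that depends on the scaling.

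In the phenylpropanoid and flavonoid list, HCT, which leads to lignin and its relatives, had 1805.8 in csb3 and 2669.2 in Col-0, 1.48-fold lower. DFR, of anthocyanin synthesis, had 52.6 in csb3 and 62.7 in Col-0. The lignin enzyme CCR2 (37.5 in csb3 and 31 in Col-0) and the proanthocyanidin enzyme BAN (1.6 in csb3 and 3.4 in Col-0) were below 50 on both arrays. OPCL1, which activates a jasmonate precursor, had 511.0 in csb3 and 518.3 in Col-0. WSD1, a wax ester synthase, had 34.5 in csb3 and 80.0 in Col-0, at least 1.60-fold lower, and was called down with a floor of 20. In the annotation these lists have probe sets for at most 13.8% of their names, too few for a median.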

How the data were processed

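RNA from 1 csb3 and 1 Col-0 sample had been hybridised to ATH1 arrays. The authors computed the deposited intensity signals with MAS5 (no version in the submitters' notes). They are linear, and the mean of the 22810 probe sets without the lowest and highest 2% is 250 on both arrays. The number of arrays limits the precision, and the SAM step on triplicates in the methods was not repeated.

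Of the 22810 probe sets, the annotation gives 13513 with 1 gene and 503 with several. The others have no gene in it, so a gene without a probe set here may still be on the array. Symbols came from RefSeq genes of TAIR10.1, used only for names and gene order. Members with several probe sets would be read from the brightest, but 0 had more than 1. With Python 3.11.15, NumPy 2.4.6, pandas 2.3.3, statsmodels 0.14.6 and matplotlib 3.10.9, signals below 50 were set to 50, log2 ratios taken and 2-fold differences called. Alternatives were floors of 20, 100 or none, 32 added, calls at 1.5-fold or 4-fold, and scaling by the median, by signal level, on 2 reference genes (TIP41 and SAND) or on 18 spike-in probe sets. The call rule was tested on simulated data. Partner and marker lists were matched by symbol or synonym, and homonyms of CHI, CCR2 and GR1 were left out. Every readable member is named, and every dim one too. Members and lists were chosen with earlier results of these data known. Protein and promoter sequences were not used here.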

Additional observations from a re-analysis of the deposited data

How the results depend on the processing

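Members called up numbered 1 at a floor of 50 (3.62% of all nuclear genes), and 3 with a floor of 20 (5.42%), 5 with no floor (11.5%), 2 with 32 added in place of a floor (3.21%), 6 with spike-in scaling (30.5%) and 0 at 4-fold (0.643%). Members called down numbered 0 (2.28%), and 1 with no floor (17.3%), 2 with median centring (2.78%), 2 with intensity-dependent scaling (2.67%), 3 with reference gene scaling (4.21%) and 4 at 1.5-fold (7.73%). All of these were BGLU genes except 2 of the 6 rises with spike-in scaling, GSTU16 and GSTU27 (so 4 BGLU genes), and 1 of the 4 falls at 1.5-fold, GSTU20 (so 3 BGLU genes). The median log2 ratio of the 14 members was 0.81 with spike-in scaling, which removes a log2 ratio of -0.98 between the arrays (0.23 for the reference genes, 0.08 for median centring), and it lay between -0.38 and -0.03 under the other alternatives. The 10 partner genes gave 1 fall with a floor of 20, 2 falls with no floor, 1 fall with reference gene scaling and 2 rises with spike-in scaling. No alternative reversed BGLU25. No member was affected by averaging probe sets or by leaving out shared probes, since none has either. Dimness limits most members, 20 of the 36 being below 50 on both arrays. No paired analysis was possible because there is a single array of csb3 and a single one of Col-0.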
